A study of Homo sapiens with 25 samples.

Results

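Of the 12562 LSD1 peaks in DMSO-treated NB4 cells, 2183 (17.4%) shared no base with a GFI1 peak and none with an H3K4me3 peak of the DMSO library. These distal LSD1 sites without GFI1 are described here across the conditions of the study. They were selected on peak calls alone: 5428 LSD1 peaks (43.2%) had no GFI1 peak, and 3245 of those were set aside because they carried H3K4me3 in DMSO. Distal therefore means the absence of an H3K4me3 peak and not a measured distance from a gene. NB4 is an established human line derived from acute promyelocytic leukemia, and its cells answer to retinoic acid (RA). For 24 h the cells received the LSD1 inhibitor MC_2580 (dose not stated in the labels), 0.01 µM RA, 1 µM RA, the combination of MC_2580 and 0.01 µM RA, or the solvent DMSO alone. Chromatin immunoprecipitation with sequencing covered the histone marks H3K27ac, H3K4me1, H3K4me2 and H3K4me3 in all 5 conditions, LSD1 with MC_2580 and with DMSO, and GFI1 in untreated cells. All 4 treatments are compared with the same DMSO libraries. Every group is a single library, and a replicate spread to judge differences by does not exist. The read depth of the libraries is unknown.

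LSD1 (KDM1A) is a demethylase that removes methyl groups from mono- and dimethylated lysine 4 of histone H3, and it sits in repressor complexes with CoREST and histone deacetylases. GFI1 is a zinc-finger repressor of blood cells that brings LSD1 to DNA through its SNAG domain. H3K4me1 and H3K4me2 mark enhancers, H3K27ac marks active enhancers and promoters, and H3K4me3 is found mainly at promoters. RA makes promyelocytic leukemia cells mature along the neutrophil lineage.

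A mark was called at a site where a deposited peak of that library shared at least 1 base with the LSD1 peak. Intervals in brackets are 95% intervals, exact binomial for a share and normal for a difference of shares, and reflect counting error only, since sites of 1 library are not replicates. A mark was gained where it was called in the treatment and not in DMSO, and lost in the opposite case. The log2 of gained over lost sites was called past 1.5-fold, and a difference between classes past 5 percentage points. The lists differed in length: the H3K27ac lists held 24552 peaks with MC_2580, 55793 under 0.01 µM RA, 38808 under 1 µM RA, 41191 with the combination and 32789 with DMSO. A longer list offers more peaks to call as gained, and values with lists of equal length stand beside many of the gains and losses. Shares of sites called in a condition are from the full lists.

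The values that chose the sites are given here as a description. Their LSD1 scores (the peak caller's value per peak) had a median of 325, against 444 at the 2637 distal LSD1 sites with GFI1 and 404 over all LSD1 peaks. Their median width was 1693 bases, against 1762 bases at distal sites with GFI1. The nearest GFI1 peak lay at a median gap of 12.9 kb (1.37 kb at the 10th and 88.6 kb at the 90th percentile). The nearest H3K4me3 peak of DMSO lay at a median gap of 12.6 kb (1.61 kb to 77.3 kb). Just inside the rule, 159 members had a GFI1 peak within 1 kb, and H3K27ac was called at 69.2% of them with MC_2580 and 75.5% with DMSO. Just outside it, 18 distal sites shared at most 200 bases with a GFI1 peak, and the same shares were 66.7% with MC_2580 and 72.2% with DMSO. Among the 141 members with an H3K4me3 DMSO peak within 1 kb, 56.7% had H3K4me3 with MC_2580. All 19 GFI1-free sites that shared at most 200 bases with an H3K4me3 DMSO peak had it with MC_2580. The sites were spread over 23 chromosomes, from 231 on chromosome 1 to 22 on chromosome 18. They made up between 9.38% (chromosome 13) and 26.3% (chromosomes 22 and 16) of the LSD1 peaks of a chromosome.

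Most of these sites had H3K4me1 and H3K27ac in DMSO, at lower shares than LSD1 sites as a whole. H3K4me1 was called at 91.2% of them under MC_2580, 85.2% under 0.01 µM RA, 88.0% under 1 µM RA, 92.4% under the combination and 89.2% in DMSO. H3K4me2 was called at 62.7% with MC_2580 (60.6% to 64.7%), 46.9% under 0.01 µM RA, 50.5% under 1 µM RA, 60.1% with the combination and 49.5% with DMSO (47.4% to 51.6%). H3K27ac was called at 55.6% with MC_2580 (53.5% to 57.7%), 74.3% under 0.01 µM RA (72.4% to 76.1%), 70.9% under 1 µM RA, 74.0% with the combination and 69% with DMSO (67.0% to 71.0%). H3K4me2 was thus most frequent in both conditions with MC_2580, and H3K27ac was least frequent with MC_2580 alone. The order of 0.01 µM RA and DMSO in H3K27ac depended on list length. With lists of equal length 246 members gained H3K27ac under 0.01 µM RA and 351 lost it, which put its share below that of DMSO. Over all LSD1 sites in DMSO the shares were 95.8% for H3K4me1, 78.8% for H3K4me2 and 78.6% for H3K27ac, each above that of the members. H3K4me3, which the rule holds at 0 in DMSO, was called at 38.0% with MC_2580, 26.7% under 0.01 µM RA, 21.3% under 1 µM RA and 28.5% with the combination.

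**Figure D1:**
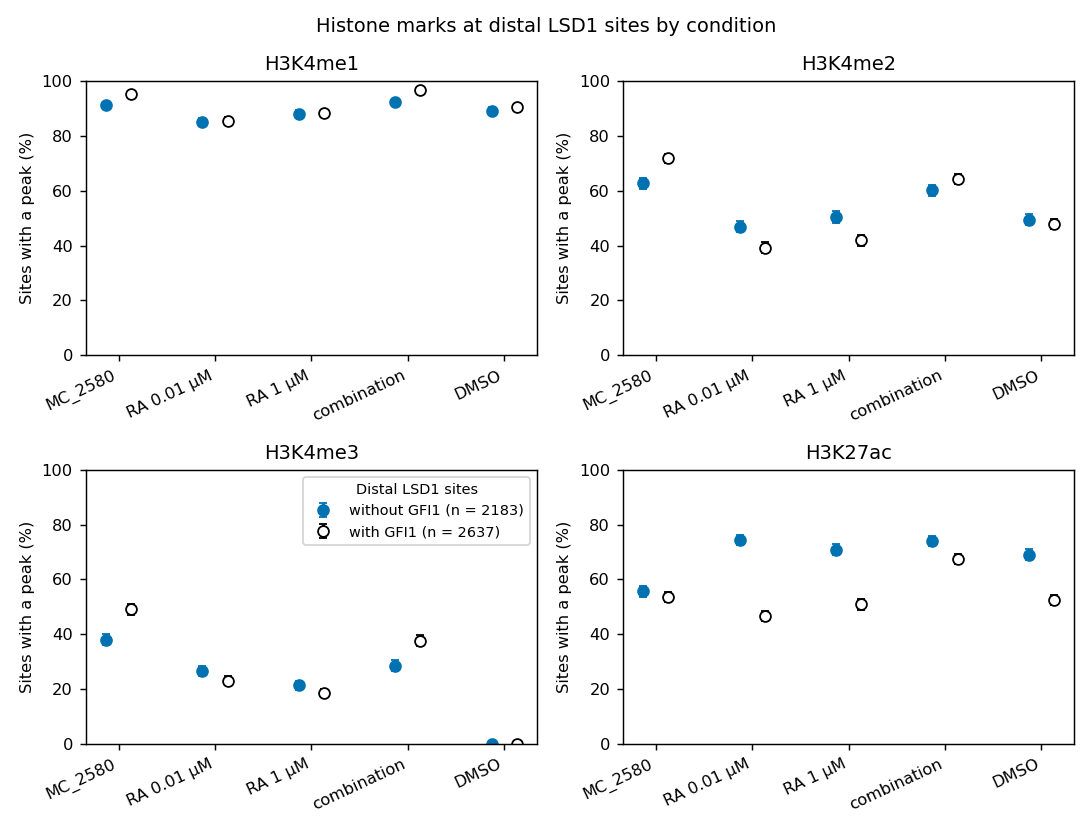
Share of sites (%) with a peak of each mark in the 5 conditions, for distal LSD1 sites without GFI1 (filled, n = 2183) and with GFI1 (open, n = 2637); bars give exact binomial 95% limits for counting error. H3K27ac at sites without GFI1 stands at 55.6% with MC_2580 and between 69% and 74.3% in the other conditions, while H3K4me3 in DMSO is 0 in both classes by the rule. All shares are from the full lists, which differ in length.

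The inhibitor left LSD1 itself called at most of these sites. An LSD1 peak was present with MC_2580 at 90.6% of members and at 79.3% of distal sites with GFI1, a difference of 11.3 percentage points (9.30 to 13.2). Over all LSD1 peaks the share was 92.2%. The share in members followed LSD1 strength: over 4 equal classes of LSD1 score it was 80.4% in the lowest, then 88.6% and 94.0%, and 99.3% in the highest. The 206 members whose LSD1 peak was not called with MC_2580 had a median DMSO score of 267, against 336 for the 1977 that kept it. H3K27ac in DMSO was called at 43.7% of the 206 and at 71.7% of the 1977. The LSD1 list with MC_2580 held 18822 peaks against 12562 with DMSO and began at a higher score (357 against 234). With 1 minimum LSD1 score for both lists, the rule gave 899 members and 97.6% of them kept LSD1.

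With MC_2580 H3K4me1 and H3K4me2 were gained at more of these sites than they were lost, and H3K27ac was lost at more than it was gained. H3K4me2 was gained at 349 of the 1103 members without it in DMSO (31.6%, against 42% of all LSD1 sites without it) and lost at 60 of the 1080 with it (5.56%, against 1.09% of all LSD1 sites with it). Each share of members is set in this way against the same share over all LSD1 sites, members included. Most of those sites carried H3K4me3 in DMSO (61.6%), which no member did. The log2 of gained over lost sites was 2.54. H3K4me1 was gained at 59 of 236 members (25%, against 39.7%) and lost at 16 of 1947 (0.822%, against 0.416%), a log2 of 1.88. H3K4me3, which the rule lets only be gained, was gained at 829 of 2183 members (38.0%, against 44%). H3K27ac was gained at 80 of 676 members (11.8%, against 20%) and lost at 373 of 1507 (24.8%, against 11.3%), a log2 of -2.22. The members' shares of gained sites were below these values for all 4 marks, and their shares of lost sites were above them for H3K4me1, H3K4me2 and H3K27ac. The H3K4me2 log2 was 1.47 where at least 50% of the LSD1 peak had to be covered and 5.30 with a one-sided threshold. With lists of equal length H3K4me2 had a log2 of 0.55, which no longer passed 1.5-fold, 405 members gained H3K4me3, and H3K27ac had a log2 of -1.10. The H3K27ac loss was not confined to LSD1 sites: 35.0% of all H3K27ac peaks of DMSO had no counterpart in the shorter MC_2580 list. The H3K27ac peaks lost at members had a median DMSO score of 130, against 757 where the mark was kept, and 230 of the 373 scored at least 100.

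Under 0.01 µM RA H3K27ac was gained at more members than lost it, and H3K4me1 was lost at more than gained it. H3K27ac was gained at 317 of 676 members (46.9%, against 36%) and lost at 202 of 1507 (13.4%, against 10.1%), a log2 of 0.65. This direction depended on list length: with lists of equal length the log2 was -0.51. H3K4me1 was gained at 26 of 236 members (11%, against 11.5%) and lost at 114 of 1947 (5.86%, against 2.85%), a log2 of -2.13. Distal sites with GFI1 lost H3K4me1 at 6.57%, a share near that of the members. H3K4me2 was gained at 152 of 1103 members (13.8%, against 12.6%) and lost at 209 of 1080 (19.4%, against 7.45%), and its log2 of -0.46 did not pass 1.5-fold and was 0.14 with a one-sided threshold. H3K4me3 was gained at 582 members (26.7%, against 24.7%), or 352 with lists of equal length.

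Under 1 µM RA only the log2 of H3K4me1 passed 1.5-fold. H3K27ac was gained at 225 of 676 members (33.3%, against 28.9%) and lost at 185 of 1507 (12.3%, against 7.27%), and the log2 of 0.28 did not pass 1.5-fold. With lists of equal length the log2 was -0.19, and H3K27ac was gained at 217 of 830 members under 1 µM RA and at 246 of the same 830 under 0.01 µM RA. H3K4me1 was gained at 32 of 236 members (13.6%, against 14.5%) and lost at 57 of 1947 (2.93%, against 1.45%), a log2 of -0.83 that was -1.48 with lists of equal length. H3K4me2 was gained at 226 of 1103 members (20.5%, against 16.9%) and lost at 204 of 1080 (18.9%, against 8.13%). Its log2 of 0.15 did not pass 1.5-fold and was -0.87 where at least 50% of the LSD1 peak had to be covered, -0.55 with lists of equal length and 1.18 with a minimum score of 100. H3K4me3 was gained at 465 members (21.3%, against 19.7%), or 296 with lists of equal length.

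With the full lists, the combination had H3K4me1 and H3K4me2 shares near those with MC_2580. Its H3K4me3 and H3K27ac shares were nearer those under 0.01 µM RA alone. H3K4me1 was gained at 87 of 236 members (36.9%, against 53.9%) and lost at 16 of 1947 (0.822%, against 0.299%), a log2 of 2.44 that was 0.81 with lists of equal length. H3K4me2 was gained at 333 of 1103 members (30.2%, against 35.5%) and lost at 101 of 1080 (9.35%, against 2.69%), a log2 of 1.72 that was 0.87 with lists of equal length and 3.43 with a one-sided threshold. H3K4me3 was gained at 622 members (28.5%, against 33.5%), or 380 with lists of equal length, in a library whose title names 1 µM RA and whose treatment field names 0.01 µM. H3K27ac was gained at 280 of 676 members (41.4%, against 46.9%) and lost at 171 of 1507 (11.3%, against 4.91%), a log2 of 0.71 that was 0.092 with lists of equal length. Set against 0.01 µM RA instead of DMSO, the combination gained H3K4me2 at 328 of 1160 members (28.3%, against 38.6%) and lost it at 39 of 1023 (3.81%, against 1.07%). In the same comparison H3K4me3 was gained at 175 of 1601 members (10.9%, against 20.9%) and lost at 135 of 582 (23.2%, against 3.72%). Its log2 of 0.37 did not pass 1.5-fold. Distal sites with GFI1 lost H3K4me3 in this comparison at 111 of 609 (18.2%). With the combination against DMSO, they lost H3K27ac at 11.2%, H3K4me2 at 8.17% and H3K4me1 at 0.335%. The first 2 of these losses were near those of the members. H3K27ac was gained over 0.01 µM RA at 202 of 561 members (36.0%, against 48%) and lost at 208 of 1622 (12.8%, against 5.1%), a log2 of -0.04. At distal sites with GFI1 the combination gained H3K27ac over 0.01 µM RA at 659 of 1406 sites (46.9%) and lost it at 111 of 1231 (9.02%). With the full lists the number of members with H3K27ac was thus almost even, 1616 with the combination and 1622 with 0.01 µM RA alone. At distal sites with GFI1 it was 1779 with the combination and 1231 with RA alone. The evenness in members depended on list length. With lists of equal length the combination gained H3K27ac over DMSO at 258 of 830 members and lost it at 242 of 1353. Under 0.01 µM RA these counts were 246 gained and 351 lost. Lists of equal length were not used for this contrast at sites with GFI1.

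Members gained H3K27ac at a higher share than distal sites with GFI1 under both RA doses, and at a lower share with MC_2580. Of the sites without H3K27ac in DMSO, 46.9% of members and 20.1% of distal sites with GFI1 gained it under 0.01 µM RA, a difference of 26.8 percentage points (22.4 to 31.2). Under 1 µM RA the gains were 33.3% of members and 18.4% of sites with GFI1, a difference of 14.9 points (10.7 to 19.0). With MC_2580 11.8% of members and 24.4% of sites with GFI1 gained H3K27ac, a difference of -12.5 points (-15.95 to -9.15). With the combination the difference was -2.56 points (-7.18 to 2.05) and did not pass 5 points, although it was -6.08 points with a stricter GFI1 list and -5.78 points with 1 minimum LSD1 score. It had the other sign, 2.01 points, when sites with GFI1 were weighted to the members' mix of DMSO marks and LSD1 scores.

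Members lost H3K27ac at a lower share than distal sites with GFI1 under both RA doses. Under 0.01 µM RA H3K27ac was lost at 13.4% of members that had it and at 29.2% of distal sites with GFI1, a difference of -15.8 points (-18.7 to -12.8). Under 1 µM RA it was lost at 12.3% of members and 19.6% of sites with GFI1, a difference of -7.33 points (-10 to -4.66). With MC_2580 it was lost at 24.8% of members and 20% of sites with GFI1, and the difference of 4.71 points (1.67 to 7.74) did not pass 5 points. With a minimum score of 100 in the histone lists that difference was 7.21 points. With lists of equal length the gain differences were 17.8 points under 0.01 µM RA, 12.3 points under 1 µM RA and -13.6 points with MC_2580. When sites with GFI1 were weighted to the members' mix of DMSO H3K4me1 and H3K4me2 calls and LSD1 scores, an alternative added after seeing the data, the gain differences were 26.7 points under 0.01 µM RA, 14.5 points under 1 µM RA and -7.08 points with MC_2580.

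The H3K4 marks also differed between the classes with the full lists. These differences were not recomputed with lists of equal length or in the other alternatives. H3K4me1 was gained with MC_2580 at 25% of the 236 members without it and 54.9% of such sites with GFI1, a difference of -29.9 points (-38.2 to -21.6). With the combination the gains were 36.9% of members and 68.3% of sites with GFI1, a difference of -31.4 points (-39.9 to -23.0). H3K4me2 was gained with MC_2580 at 31.6% of members and 48.3% of sites with GFI1, a difference of -16.6 points (-20.4 to -12.8). H3K4me2 was lost under 0.01 µM RA at 19.4% of members and 28.9% of sites with GFI1, a difference of -9.51 points (-13.0 to -6.08). H3K4me3 was gained with MC_2580 at 38.0% of members and 49.1% of sites with GFI1, a difference of -11.1 points (-13.9 to -8.31). With the combination H3K4me3 was gained at 28.5% of members and 37.7% of sites with GFI1, a difference of -9.16 points (-11.8 to -6.52). Under 0.01 µM RA its gains were 26.7% of members and 23.1% of sites with GFI1, a difference of 3.57 points (1.11 to 6.02) that did not pass 5 points.

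The sites with GFI1 were not uniform. In H3K27ac, those with the weakest GFI1 calls were nearest to the members in every condition except MC_2580. H3K27ac under 0.01 µM RA was called at 74.3% of members, at 63.2% of the 606 distal sites whose strongest GFI1 peak scored 50 to 75, and at 26.5% of the 238 sites with scores of 500 or more. In DMSO H3K27ac was called at 69% of members, 68.6% of the sites with GFI1 scores of 50 to 75 and 31.9% of those at 500 or more. With MC_2580 the range was narrower, from 55.6% of members through 60.2% to 47.1%. H3K4me3 under 0.01 µM RA was gained at 26.7% of members, 32.2% of sites with GFI1 scores of 50 to 75 and 10.1% of those at 500 or more, while with MC_2580 it was gained at 38.0%, 48.0% and 56.7% of the same sets. Against the sites with GFI1 scores of 50 to 75 alone, a set chosen after seeing the data, the H3K27ac gain difference was 16.9 points under 0.01 µM RA, 6.97 points under 1 µM RA and -5.01 points with MC_2580. In that comparison the loss difference was -8.23 points under 0.01 µM RA, and under 1 µM RA it was -2.63 points and no longer passed 5 points. The combination's gain difference was 4.05 points there. GFI1 binding below the list's minimum score of 50 was not measured here.

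**Figure D2:**
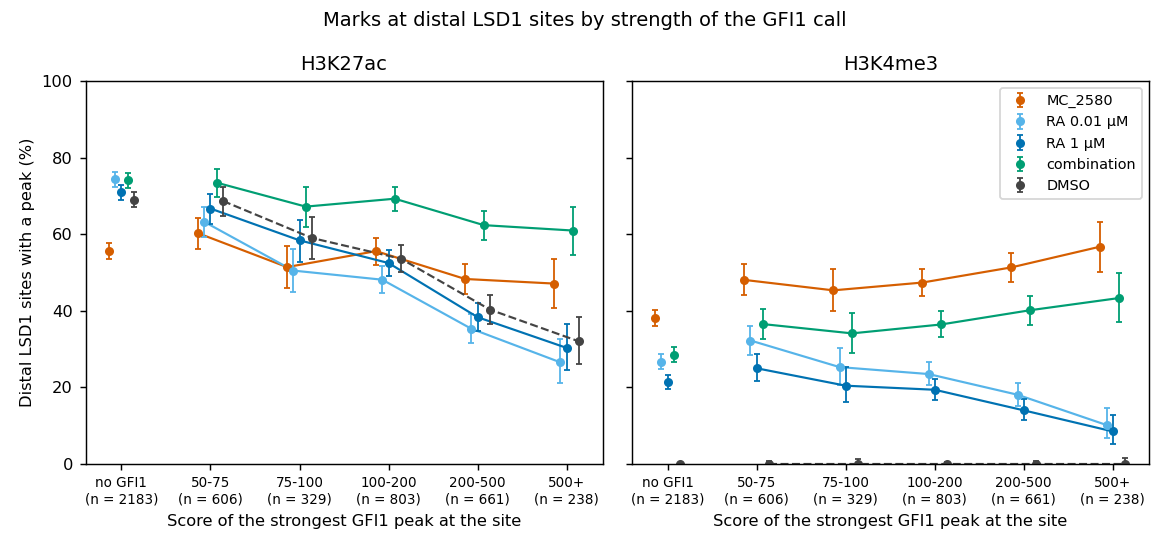
Share of distal LSD1 sites (%) with H3K27ac (left) and H3K4me3 (right) in the 5 conditions, by the score of the strongest GFI1 peak at the site, with sites without GFI1 at the left of each panel; bars give exact binomial 95% limits and lines join the GFI1 score classes. H3K27ac under 0.01 µM RA is at 74.3% without GFI1 and 26.5% at GFI1 scores of 500 or more, while the MC_2580 values lie between 47.1% and 60.2%.

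Each member has 20 calls, 4 marks in 5 conditions, and these formed 833 joint patterns, 587 of them held by a single site. The 10 commonest patterns covered 608 members (27.9%). At 299 members (13.7%) no mark changed between any conditions, against 50.3% over all LSD1 sites, most of which carry H3K4me3 in DMSO, and 224 of the distal sites with GFI1 (8.49%). At 949 members 1 mark changed, at 731 members 2, at 199 members 3, and at 5 members all 4. H3K4me1 was the most constant mark, the same in all conditions at 1956 members. H3K4me2 was constant at 1386 members, H3K27ac at 1199 and H3K4me3 at 1163, which had it in no condition. With lists of equal length 463 members were constant in all marks.

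The commonest pattern, at 152 members, had H3K4me1, H3K4me2 and H3K27ac in all 5 conditions and H3K4me3 in all 4 treatments. The rule excludes H3K4me3 in DMSO, so this is the fullest pattern that a member can hold. The H3K4me3 list of DMSO was also the shortest, with 21688 peaks against 26271 to 29872 with the treatments. The next pattern, at 105 members, had H3K4me1, H3K4me2 and H3K27ac throughout and no H3K4me3. The third pattern, at 76 members, had H3K4me1 and H3K27ac throughout without the other marks, and the fourth, at 60 members, matched the pattern of the 105 with H3K4me3 added by MC_2580 alone. No mark was called in any condition at 55 members, and H3K4me1 alone was called throughout at 46. Patterns 8 and 9, at 32 and 26 members, differed from patterns 3 and 2 in a single call, the absence of H3K27ac with MC_2580.

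**Figure D3:**
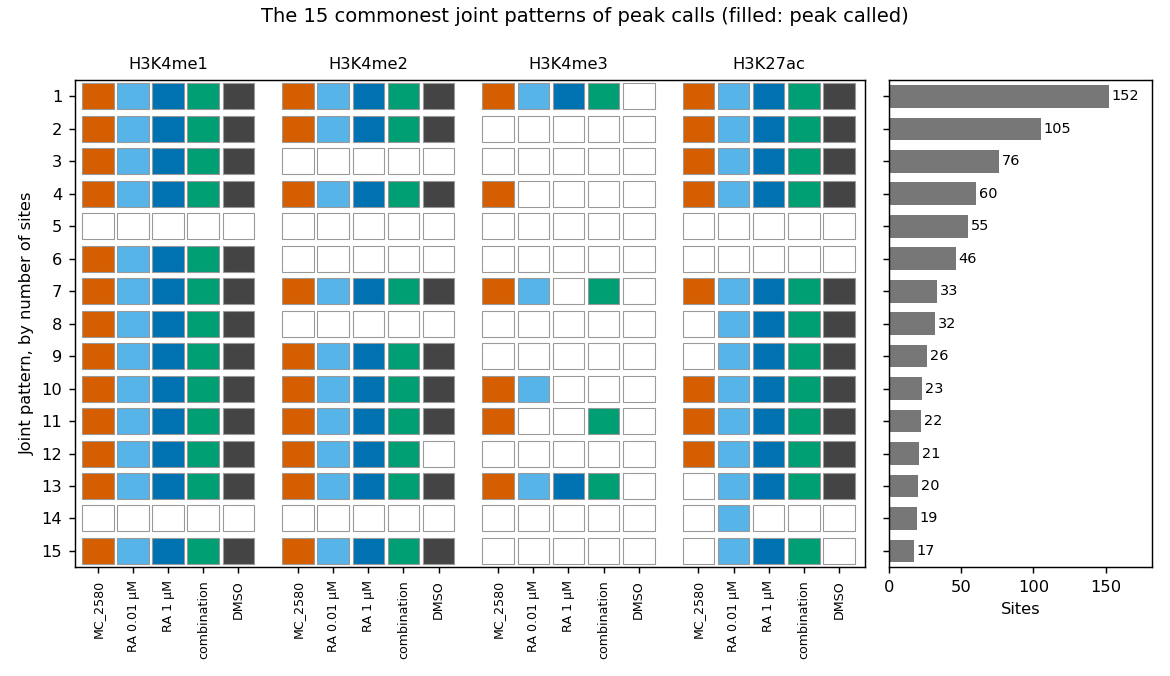
The 15 commonest joint patterns of peak calls at distal LSD1 sites without GFI1 (rows) with marks and conditions in columns, a filled square standing for a called peak; bars at the right give the number of sites. The leading pattern, at 152 sites, lacks only H3K4me3 in DMSO, which the rule excludes at every site. In H3K27ac, patterns 8 and 9 lack the call with MC_2580 only.

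Taking 1 mark at a time, H3K27ac was called in all 5 conditions at 943 members (43.2%) and in none at 256 (11.7%). It was missing with MC_2580 only at 211 members (9.67%, against 5.56% over all LSD1 sites) and at 140 distal sites with GFI1 (5.31%). With lists of equal length this pattern was held by 100 members. H3K27ac was called in the 3 RA conditions and neither with MC_2580 nor with DMSO at 117 members (5.36%, against 2.9%) and at 82 sites with GFI1 (3.11%). The opposite pattern, H3K27ac with MC_2580 and the combination only, was held by 7 members (0.321%, against 1.35%) and by 125 sites with GFI1 (4.74%). The exact intervals of these shares, over all sites of a class, do not overlap between members and sites with GFI1 for any of the 3 patterns. They reflect counting error only, and sites near each other are not independent. Only sites with H3K27ac in DMSO can lack it with MC_2580 only: 211 of 1507 members and 140 of 1382 sites with GFI1 did. On this base the 2 shares lie closer together. The other 2 patterns need its absence in DMSO, and were held by 117 and 7 of 676 members and by 82 and 125 of 1255 sites with GFI1. Of the 117 members acetylated in the RA conditions only, 88.0% had H3K4me1 and 43.6% had H3K4me2 in DMSO, and 94.0% kept LSD1 with MC_2580. Over all members, most of which had H3K27ac in DMSO, these shares were 89.2%, 49.5% and 90.6%. The 117 belong to the 596 members with H3K27ac in neither DMSO nor MC_2580. Of these 596, 71.8% had H3K4me1 and 183 had H3K4me2 in DMSO, and 81.9% kept LSD1. The shares of the 117 were above those of this set.

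H3K4me3 appeared in all 4 treatments at 303 members (13.9%, against 5.05%) and at 332 sites with GFI1 (12.6%). It appeared with MC_2580 only at 227 members (10.4%, against 4.7%) and at 363 sites with GFI1 (13.8%). Over all LSD1 sites these shares are bounded by the sites that already carry H3K4me3 in DMSO. H3K4me3 with MC_2580 and the combination only was found at 88 members (4.03%, against 3.46%) and at 347 sites with GFI1 (13.2%). H3K4me2 with MC_2580 and the combination only was found at 73 members (3.34%, against 2.76%) and at 254 sites with GFI1 (9.63%). For H3K4me2, H3K4me3 and H3K27ac alike, the pattern restricted to the conditions with the inhibitor was rarer in members than in distal sites with GFI1. Many LSD1 sites had H3K4me2 or H3K4me3 in DMSO and could not hold the pattern for that mark. Among sites without H3K4me3 in DMSO, it was held by 88 of 2183 members and 435 of all 4820 LSD1 sites. For H3K4me2 it was held by 73 of 1103 members and 347 of all 2662 LSD1 sites without the mark. On this base the members' shares were the lower for both marks. The gained H3K4me3 peaks were weak: their median score at members was 120 with MC_2580, 132 under 0.01 µM RA, 111 under 1 µM RA and 98.7 with the combination, over a list floor of 50. Between 8.68% and 13.3% of these gains came from a peak that also touched an H3K4me3 peak of DMSO elsewhere.

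The marks present in DMSO and those gained were related. H3K4me3 with MC_2580 appeared at 58.4% of the 862 members with H3K4me1, H3K4me2 and H3K27ac in DMSO and at 45.5% of the 191 with H3K4me1 and H3K4me2. It appeared at 28.4% of the 592 with H3K4me1 and H3K27ac, at 18.9% of the 302 with H3K4me1 alone and at 2.50% of the 160 with no mark. The 1454 members with both H3K4me1 and H3K27ac in DMSO divided with MC_2580 into 671 with H3K4me3 (46.1%), 536 that kept both marks without H3K4me3 (36.9%) and 240 with H3K4me1 but neither H3K27ac nor H3K4me3 (16.5%). Under 0.01 µM RA the same 1454 divided into 481 with H3K4me3 (33.1%), 785 that kept both marks without it (54.0%) and 146 with H3K4me1 but neither H3K27ac nor H3K4me3 (10.0%).

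The 493 members with H3K4me1 and no H3K27ac in DMSO, a state often called primed, were acetylated at a higher share in the RA conditions than with MC_2580 alone. With MC_2580 65 of them had H3K27ac (13.2%), whether or not H3K4me3 was called, against 233 under 0.01 µM RA (47.3%), 198 under 1 µM RA (40.2%) and 241 with the combination (48.9%). H3K4me1 was still called at all 65 of these with MC_2580, at 202 of the 233 under 0.01 µM RA, at 194 of the 198 under 1 µM RA and at 240 of the 241 with the combination. H3K4me3 was called at 144 of the 493 with MC_2580 (29.2%), and 300 had H3K4me1 with neither H3K27ac nor H3K4me3 (60.9%). At the 160 members with no mark in DMSO, 35 had H3K4me1 without H3K27ac with MC_2580 (21.9%). The lower RA dose, 0.01 µM, instead gave H3K27ac without H3K4me1 at 66 of these 160 (41.25%), against 17 under 1 µM RA and 15 with the combination. The H3K27ac list under 0.01 µM RA was the longest of the 5, and the part of its length in this count was not tested.

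**Figure D4:**
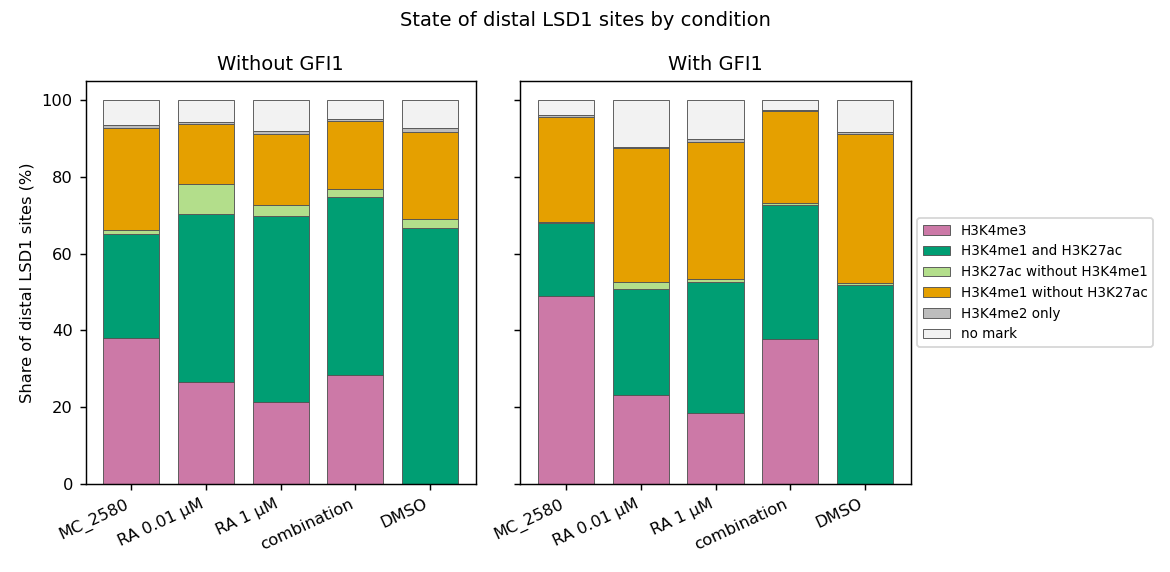
Distal LSD1 sites without GFI1 (left) and with GFI1 (right), divided in each condition into exclusive states by their calls, as a share of sites (%); a site with H3K4me3 is placed in that state whatever its other marks. Without GFI1, sites with H3K4me1 and H3K27ac but no H3K4me3 are 27% with MC_2580 and 66.6% with DMSO, and sites with H3K4me1 without H3K27ac are 26.7% with MC_2580 and 22.6% with DMSO. The rule keeps the H3K4me3 state empty in DMSO, so only the treatments can move sites from the other states into it. Whatever the H3K4me3 call, H3K27ac is at 55.6% of sites without GFI1 with MC_2580 and 69% with DMSO.

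In each treatment H3K4me3 was called at a higher share of the members that kept H3K27ac than of those that lost it. With MC_2580, H3K4me3 was called at 97 of the 373 members that lost H3K27ac (26.0%) and at 576 of the 1134 that kept it (50.8%). H3K4me2 was gained, where it was absent in DMSO, at 25% of the members that lost H3K27ac and at 45.2% of those that kept it. H3K4me3 under 0.01 µM RA was called at 22.8% of members that lost H3K27ac and 33.6% of those that kept it, under 1 µM RA at 4.86% and 28.9%, and with the combination at 13.5% and 36.2%. Members that gained H3K27ac had H3K4me3 at 28.75% with MC_2580, 18.9% under 0.01 µM RA, 19.6% under 1 µM RA and 27.5% with the combination. These shares were below those of members that kept H3K27ac. Under 0.01 µM RA the share was also below that of members that lost H3K27ac. Members that lost H3K27ac with MC_2580 had H3K4me1 in DMSO at 91.7% and those that kept it at 98.1%. LSD1 was still called with MC_2580 at 89.5% of the members that lost H3K27ac and 95.5% of those that kept it. Strength of LSD1 went with H3K4me3 as well: with MC_2580 it was called at 27.1% of members in the lowest of 4 equal classes of LSD1 score, then at 33.2% and 38.5%, and at 53.1% in the highest.

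The peaks of the marks had different extents around the LSD1 peak. H3K4me2 peaks at members were narrow, with a median width of 666 bases with MC_2580 and 798 bases with DMSO, against a median site width of 1693 bases. H3K27ac peaks were broad, with a median width of 4567 bases with MC_2580 and 5202.5 bases with DMSO. At the centre of the LSD1 peak H3K27ac covered 51.4% of members with MC_2580, 67.2% under 0.01 µM RA, 67.0% under 1 µM RA, 70.1% with the combination and 64.5% with DMSO. At 5 kb before the centre it covered 24.9% with MC_2580, 48.1% under 0.01 µM RA, 36.5% under 1 µM RA, 39.6% with the combination and 34.4% with DMSO. The excess of 0.01 µM RA over DMSO was thus larger in the flanks than at the site itself, and the deficit of MC_2580 was present in both. The part of list length in these profiles was not tested. H3K4me3 with MC_2580 covered 34.0% of members at the centre and 12.5% at 5 kb before it.

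**Figure D5:**
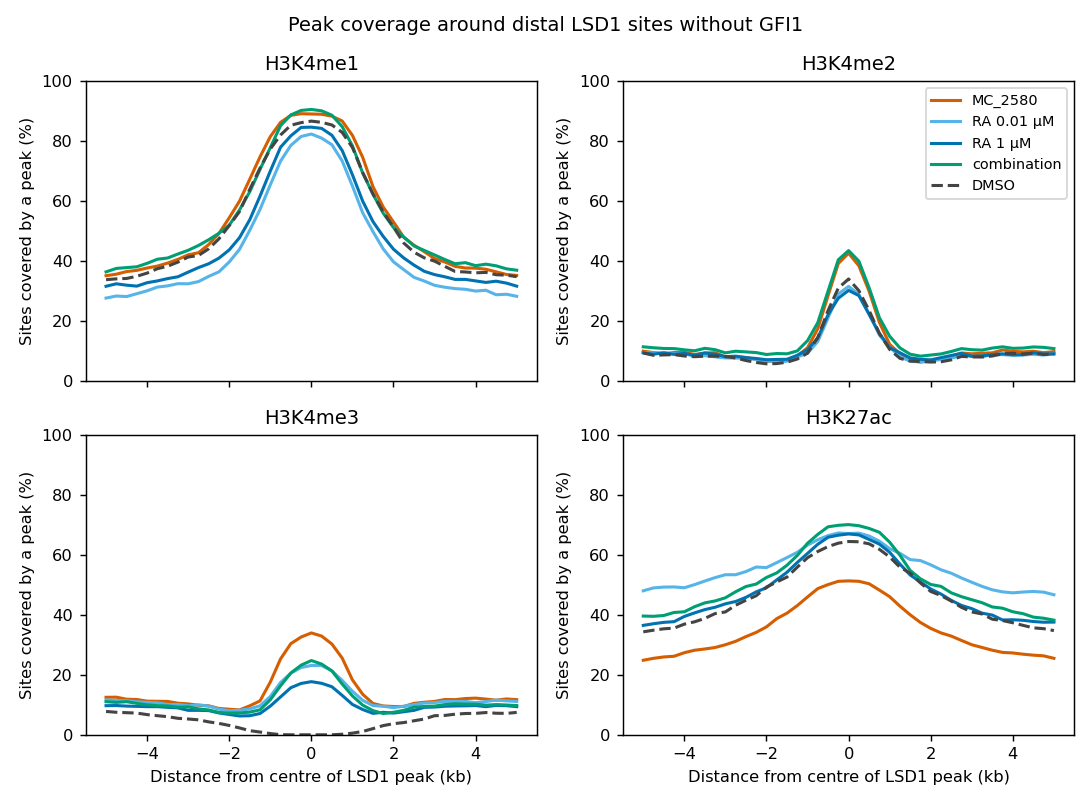
Share of distal LSD1 sites without GFI1 (%) covered by a peak of each mark at distances from -5 to 5 kb from the centre of the LSD1 peak, 1 line per condition with DMSO dashed. H3K27ac with MC_2580 lies below DMSO at every distance, H3K27ac under 0.01 µM RA exceeds DMSO most in the flanks, and the H3K4me3 line of DMSO is 0 at the centre by the rule.

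Single sites show these patterns on the caller's score, which piles up at 3100. Scores of different libraries are printed side by side, and no order between libraries is read from them. Positions are on hg18, and no gene is named because no annotation on that build was used here. The strongest LSD1 site of the class, at chr10:121175775-121178247 with a score of 3100 in DMSO and again with MC_2580, had none of the H3K4 marks in any condition. Its only histone call was H3K27ac under 0.01 µM RA, at a score of 53.8, just over the floor of 50. With a minimum score of 100, with 50% coverage and with lists of equal length this call was lost as well.

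The next strongest site, at chr16:56238538-56242506, had an LSD1 score of 2121 in DMSO and lay 8591 bases from the nearest GFI1 peak. Its H3K27ac score was 3100 in each of the 3 RA conditions, against 157 in DMSO, and no H3K27ac peak was called with MC_2580. H3K4me1 was called in all 5 conditions, at 255 with MC_2580, 147 under 0.01 µM RA, 266 under 1 µM RA, 400 with the combination and 391 with DMSO, and no H3K4me2 or H3K4me3 was called. It is the strongest LSD1 site of joint pattern 8, which has H3K4me1 throughout and lacks H3K27ac with MC_2580 only. With 50% coverage it lost 5 calls, H3K27ac in DMSO and under 1 µM RA and H3K4me1 in DMSO and under either RA dose alone, and no longer held this pattern.

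The third strongest site, at chr16:11597874-11601587, belonged to the commonest joint pattern. Its H3K27ac score was 404 with MC_2580, 1946.5 under 0.01 µM RA, 3100 under 1 µM RA, 2180 with the combination and 1228 with DMSO. Its H3K4me2 score was 1059 with MC_2580, 369 under 0.01 µM RA, 502 under 1 µM RA, 618 with the combination and 430 with DMSO. H3K4me3 appeared at 252 with MC_2580, 206 under 0.01 µM RA, 336 under 1 µM RA and 231 with the combination. H3K4me1 was called in all 5 conditions. With 50% coverage the H3K4me2 calls under either RA dose alone were lost.

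Among the members that lost H3K27ac with MC_2580, the one with the highest DMSO score lay at chr1:36615579-36616678. H3K27ac was not called there with MC_2580, scored 3100 in each of the 3 RA conditions and 3225 in DMSO, while H3K4me1 stayed called throughout, at 2272 with MC_2580 and 3100 with DMSO. An H3K27ac peak of MC_2580 lay within 1 kb of this site. The member with the strongest H3K27ac gained with MC_2580, at chr16:55456738-55457926, also gained H3K4me1, at a score of 3100 called with MC_2580 alone. This H3K4me1 call was lost with 50% coverage, and an H3K4me1 peak of the combination lay within 1 kb of the site. Its H3K27ac scored 1176 with MC_2580, 328 under 0.01 µM RA and 2063 with the combination, and was not called under 1 µM RA or in DMSO. At chr6:6917432-6919652 H3K27ac was called only with RA, at 2121 under 0.01 µM RA, 3146 under 1 µM RA and 1968 with the combination. H3K4me1 was already there in DMSO at 1384, so this is a primed site with H3K27ac called in the RA conditions alone, and its 8 calls were unchanged in the 4 other ways of calling marks.

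Some members gained H3K4me3 at high scores. At chr12:119138687-119140701 H3K4me3 scored 134 with MC_2580, 3100 with either RA dose and 1965 with the combination, and none was called in DMSO within the site. H3K27ac at this site was not called with MC_2580 or DMSO and scored 3100 with either RA dose and 1900 with the combination. An H3K4me3 peak of DMSO lay 746 bases away. The member that led the H3K4me3 gains under 0.01 µM RA, at chr18:71089693-71091462, lay 8 bases from an H3K4me3 peak of DMSO, and H3K4me3 scored 3168 there under 0.01 µM RA but was not called with 50% coverage. At chr1:17504517-17508442, by contrast, the nearest H3K4me3 peak of DMSO was 122424 bases away, and H3K4me3 scored 100 with MC_2580, 3100 under 0.01 µM RA, 2866 under 1 µM RA and 3100 with the combination. All 4 H3K4me3 calls at this site were lost with 50% coverage, and the MC_2580 call also with lists of equal length. H3K27ac there scored 74.2 with MC_2580, 3100 under 0.01 µM RA, 3100 under 1 µM RA, 2295 with the combination and 329 with DMSO.

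Sites near each other share peaks and are not independent. The members formed 1974 clusters at a distance of 10 kb, 1800 of them single sites and the largest of 5, and 64 H3K27ac peaks of DMSO touched more than 1 member. Of 209 neighbouring pairs within 10 kb, 12 had the same joint pattern. The most members in a window of 100 kb were 6, in 3 windows. In the window at chr16:11200001-11300000 H3K27ac was called at 2 of the 6 members with MC_2580, at all 6 in each RA condition and at 4 with DMSO. In the window at chr19:4500001-4600000 it was called at 0 of the 6 with MC_2580, 6 under 0.01 µM RA, 2 under 1 µM RA, 4 with the combination and 0 with DMSO. In the window at chr19:18000001-18100000 it was called at 3 of the 6 with MC_2580, 6 under 0.01 µM RA, 3 under 1 µM RA, 3 with the combination and 2 with DMSO.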

How the data were processed

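The 25 samples gave 23 deposited peak lists, 1 per antibody and condition, and 2 inputs that were not used. The submitters' processing notes name the build hg18, the peak caller MACS 1.4.1, the aligner Bowtie 1.0.1, and CASAVA 1.8, bcl2fastq 2 and FastQC (0.10.0 and 0.11.5), without saying in which step each was used. Each deposited list gives a region and a score, the authors' value per peak, used to describe, rank or filter peaks inside 1 list. No score is under 50 in the GFI1 and histone lists. The LSD1 lists held 24.7% (DMSO) and 26.1% (MC_2580) of the caller's numbered peaks, with lowest scores of 234 and 357, so an unstated filter differed between them. For the H3K4me3 library of the combination, the title gives 1 µM RA and the treatment field 0.01 µM, which was followed.

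Starts below 0 in 8 peaks were set to 0. Overlaps, gained and lost sites, joint patterns and intervals were computed with Python 3.11.15, NumPy 2.4.6, SciPy 1.17.1 and pandas 2.3.3, and figures with Matplotlib 3.10.9. The overlap code was checked on simulated lists. With 1 library per group no test against replicates exists and no p-value is given. Read depth is unknown, so precision is limited to the counting intervals. Sites named in the text are those with the highest LSD1 score, the highest-scoring gains and losses of H3K27ac and gains of H3K4me3 per treatment, the strongest LSD1 site of each of the 10 commonest joint patterns, and the fullest 100 kb windows; not all are printed. The members, rules and alternatives were chosen with earlier results of these data known. In all, 11 alternatives changed score minimums, overlap, distance, list length, the GFI1 and LSD1 lists, chromosomes, clustering and the H3K4me3 combination library, and 2 were added after seeing the data.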

Additional observations from a re-analysis of the deposited data

How the results depend on the processing

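Over 13 other settings, 261 of 304 recomputed values over 29 results kept their side of the threshold or stayed within the spread allowed, though 11 of these 261, none of them called, had the other sign. With a minimum score of 100 in the histone lists, the H3K4me2 log2 under 1 µM RA was 1.18, H3K4me3 gains were 488 (MC_2580), 374 (0.01 µM RA), 261 (1 µM RA) and 307 (combination) members, and the H3K27ac loss difference with MC_2580 was 7.21 points. With a one-sided threshold the gains were the same 488, 374, 261 and 307, that log2 was 1.04, and the H3K27ac loss difference under 1 µM RA was -4.41 points. With 50% of the site covered, the H3K4me2 log2 under 1 µM RA reversed to -0.87, the H3K27ac log2 under 0.01 µM RA was 0.36 and the loss difference with MC_2580 was 5.93 points. With lists of equal length the H3K27ac log2 under 0.01 µM RA reversed to -0.51 and that of the combination was 0.092, the H3K4me2 log2 with MC_2580 was 0.55, H3K4me3 gains were 405, 352, 296 and 380, 100 members lacked H3K27ac with MC_2580 only, and 463 were constant. Without GFI1 within 1 kb the loss difference with MC_2580 was 5.82 points. With GFI1 peaks at score 100 or more only, 1269 (MC_2580) and 955 (combination) members gained H3K4me3, 88.9% kept LSD1, the H3K4me2 and H3K27ac log2 under 0.01 µM RA were -0.70 and 0.21, and the H3K27ac gain difference with the combination was -6.08 points. With 1 minimum LSD1 score the rule gave 899 members, 97.6% of them with LSD1; 425, 283, 228 and 310 gained H3K4me3, the combination had an H3K27ac log2 of 0.51 and a gain difference of -5.78 points, and 47 had H3K27ac in the RA conditions only, 84 lacked it with MC_2580 only and 107 were constant. Against sites with GFI1 scores of 50 to 75, added after seeing the data, the loss difference under 1 µM RA was -2.63 points. The cause of these shifts was not tested, except that fewer sites enter with 1 minimum LSD1 score and more with the stricter GFI1 list. H3K27ac gains with both RA doses were past 5 points above, and with MC_2580 past 5 points below, those of distal sites with GFI1 in every alternative run.

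In 49 of 100 recounts the number of calls at a named site was unchanged. No paired analysis was possible because each antibody and condition has 1 library. Unknown read depth, thresholds on every list and the score floor of 50 limit what a missing peak can show: signal under the floor was not measured.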
